A study of Mus musculus with 6 samples.

Results

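The genes that make, store and take up noradrenaline, together with factors and a neuropeptide that mark sympathetic neurons, were examined in mouse aortas. The set holds 9 genes, namely Th, Ddc, Dbh, Gch1, Slc18a2, Slc6a2, Npy, Phox2a and Hand2. Every probe set to which the annotation of the array gives one of these symbols was taken, which gave 18 of the 45101 probe sets, and 9 of the 18193 genes that have a probe set of their own. Expression was measured with Affymetrix GeneChip MG430 2.0 arrays on 3 groups of mice, with 2 arrays per group and pooled RNA from 3 aortas for each array. The groups were untreated ApoE-/- mice, ApoE-/- mice that received vitamin E at 2000 IU per kg of diet for 7 months, and non-transgenic B6 controls. All mice were on the C57BL/6J background, ate a standard rodent chow and were 32 to 34 weeks old when the aortas were dissected free of fat. ApoE-deficient mice lack, in all tissues, the ligand that clears remnant lipoproteins from the blood, and are a model of hypercholesterolemia with atherosclerotic lesions. The groups are called untreated, treated and control (B6) from here on.

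Sympathetic nerve fibres run in the adventitia of arteries and release noradrenaline onto vascular smooth muscle. Tyrosine hydroxylase (Th) turns tyrosine into L-DOPA, aromatic L-amino acid decarboxylase (Ddc) makes dopamine, and dopamine beta-hydroxylase (Dbh) makes noradrenaline inside the vesicle. Th needs tetrahydrobiopterin, whose synthesis starts with GTP cyclohydrolase (Gch1). The vesicular monoamine transporter (Slc18a2) loads the vesicle, the noradrenaline transporter (Slc6a2) returns the transmitter to the nerve ending, neuropeptide Y (Npy) is released with it, and the transcription factors Phox2a and Hand2 establish and maintain the noradrenergic identity. Neurons make the transcripts of these genes in their cell bodies, which lie in ganglia.

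At least 1 probe set of each of the 9 genes was lower in untreated than in control aortas. This was 11 of 13 probe sets tested, beside 19.1% of all probe sets. For 6 genes, all but Gch1, Phox2a and Hand2, at least 1 was higher after vitamin E treatment than without it. This was 8 of the 13, beside 8.52% of all. By the labels the vitamin E arrays belong to another experiment, so treatment and experiment cannot be told apart. Liver genes and array controls also differed between the groups, as given further on. After vitamin E all 9 genes still had a probe set below B6, 10 of the 13 beside 19.2% of all. A gene with several probe sets has more chances of such a call. Phox2a was selected through its B6 value alone, so its lower values are no support. The vitamin E calls of Th, Npy and Slc18a2 were lost under 8, 9 and 8 of 15 other settings of the model. In untreated ApoE-/- aortas the called probe sets lay at 27.9% (Ddc) to 66.2% (a probe set of Slc6a2) of the B6 mean. Among these genes, Npy, Dbh, Ddc and Slc6a2 were named in the study from these same arrays, so their direction is not independent evidence here. The study reported no significant change of its nerve-specific probe sets with vitamin E. It also reported that the decreases in Npy-positive neurons and in Snap25 protein were not substantially prevented. Its methods asked for a p of at most 0.01 and a 2-fold difference, while a call here sets no fold threshold. RNA of whole aortic tissue was measured, so fewer cells of a type and less RNA per cell cannot be told apart.

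Of the 18 probe sets, 13 passed a filter that asked for 1 group mean of 100 or more. They were tested with limma, a linear model fitted to all 17909 probe sets that passed, and a call is an adjusted p under 0.05 over all of them. Of the 13, 12 reached 100 in all 3 groups, and Phox2a reached it in B6 aortas alone, so a lower value elsewhere was part of its selection. In untreated against control aortas 11 of the 13 were lower and 0 higher, where 19.1% of all probe sets tested were lower and 21.7% were higher. The 2 that were not called were further probe sets of Dbh and Gch1. With treatment against without it, 8 of the 13 rose and 0 fell, beside 8.52% higher and 6.99% lower of all probe sets. The 8 became 2 without either untreated array, 3 without either B6 array, 5 without the second treated array and 6 without the first. In treated against control aortas 10 of the 13 were lower and 0 higher, beside 19.2% lower and 21.9% higher of all. The median log2 fold changes of the 13 in these comparisons were -1.16, 0.33 and -0.86, against 0.03, 0.00 and 0.02 over all probe sets tested. Each of these comparisons shares 1 group of arrays with each of the others, so they are not independent.

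**Figure D1:**
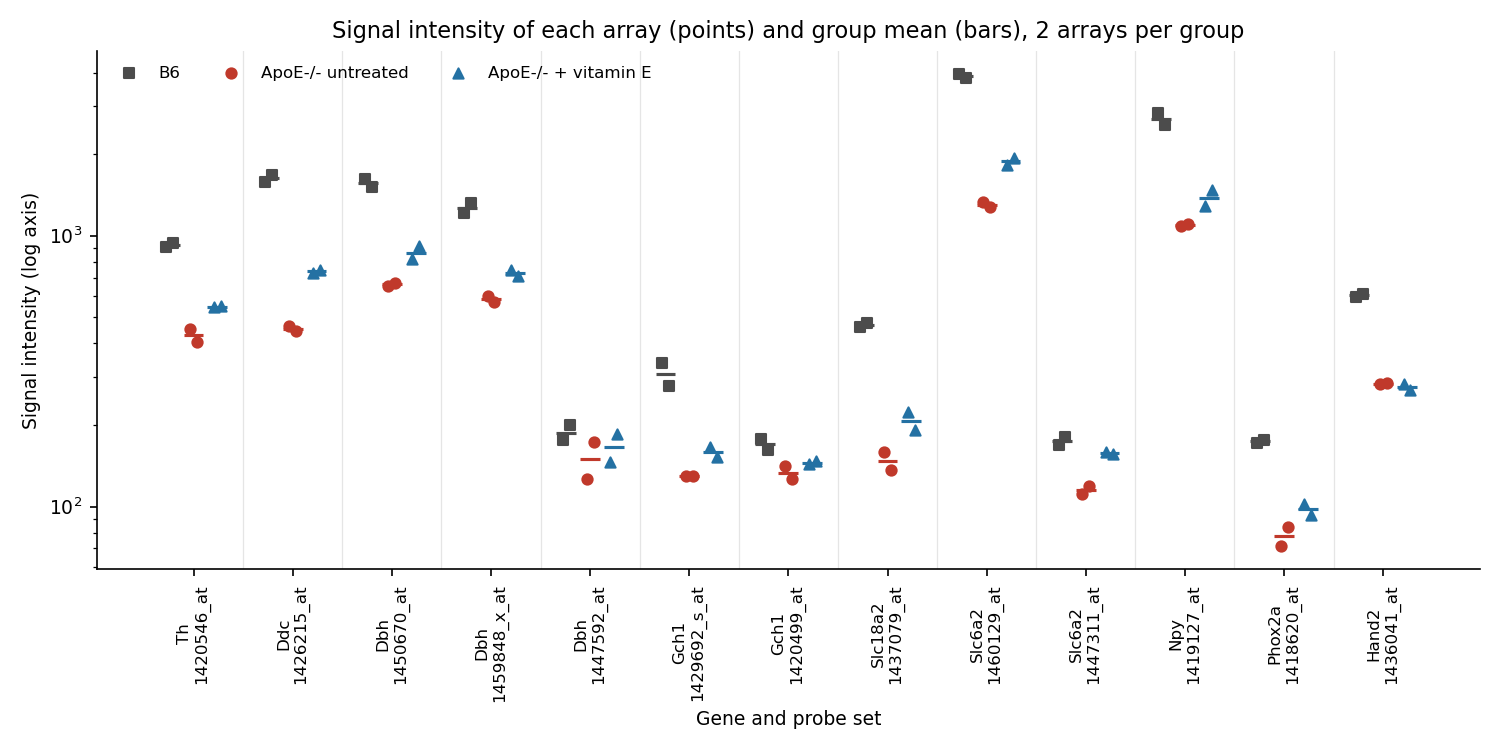
Signal intensity on a log axis for the 13 tested probe sets, with 1 point per array, a bar at each group mean and the groups told apart by colour and marker. The B6 arrays (grey squares) lie above the untreated ApoE-/- arrays (red circles) for each probe set, and for Hand2 the vitamin E arrays (blue triangles, means of 285 untreated and 277 treated) lie with the untreated ones.

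The promoters of 8 of the 9 genes were found in the RefSeq promoter table of mouse assembly GRCm38.p6 (9 start sites, of which Ddc has 2), and Slc6a2 was not among them. The window from 250 bases before to 50 after each start site was searched on both strands. The cAMP response element TGACGTCA was found in 2 of the 8 genes, Th and Slc18a2, and in 1.79% of all 32851 windows. Its core TGACG, which every full element also holds, was found in 5 of the 8, namely Th, Slc18a2, Dbh, Hand2 and Gch1, and in 20.8% of all windows. The 130 bases before the start site are shown for the 4 genes whose match falls into them, with the full element or its core in capitals. For Slc18a2 the element crosses the start site and the sequence runs to its end, 4 bases further.
Th (chr7:142899996-142900125, minus strand): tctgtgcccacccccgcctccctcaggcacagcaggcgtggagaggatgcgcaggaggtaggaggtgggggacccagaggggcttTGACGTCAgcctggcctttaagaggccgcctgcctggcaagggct
Slc18a2 (chr19:59260748-59260881, plus strand): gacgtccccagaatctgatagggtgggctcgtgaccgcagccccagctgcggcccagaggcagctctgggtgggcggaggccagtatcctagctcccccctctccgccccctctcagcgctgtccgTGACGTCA
Gch1 (chr14:47189414-47189543, minus strand): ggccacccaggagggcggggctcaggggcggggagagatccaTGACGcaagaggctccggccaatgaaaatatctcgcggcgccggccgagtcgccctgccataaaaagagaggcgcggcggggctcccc
Hand2 (chr8:57320853-57320982, plus strand): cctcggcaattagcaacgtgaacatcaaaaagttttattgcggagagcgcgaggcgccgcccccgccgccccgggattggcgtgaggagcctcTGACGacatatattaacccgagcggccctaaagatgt
The element begins 45 bases before the start site of Th and 4 before that of Slc18a2, and the core begins 88 bases before that of Gch1, 37 before that of Hand2 and 222 before that of Dbh, outside the stretch shown. The GC box GGGCGG was found in 6 of the 8 genes (35.7% of all windows), the E-box CANNTG, the kind of site that Hand2 binds, in 5 (72.3%), the AP-1 site TGANTCA in 2 (7.81%) and the homeodomain core TAATTA in 1, Hand2 (5.29%). Th and Slc18a2 both hold a GC box and an E-box as well. Such a match is a description of the letters and was not tested as a site.

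Th, which catalyses the rate-limiting step of catecholamine synthesis, read 452.7 and 406.5 in signal intensity on the untreated, 543.6 and 547.9 on the treated, and 910.9 and 940.5 on the B6 arrays. The treated arrays lay between the untreated and the B6 arrays. Th was 2.16-fold lower in untreated than in control aortas (log2 fold change -1.11, SE 0.08, adjusted p = 6e-05). Vitamin E-treated aortas had a 1.27-fold higher value than untreated ones (log2 fold change 0.35, adjusted p = 0.025), at 59.0% of the B6 mean against 46.4% without treatment. This rise kept its call under 7 of 15 other settings of the model and lost it without either untreated array (adjusted p = 0.056 and 0.16), without the second vitamin E array (0.0502) or without either B6 array (0.062 for each). Against B6 the treated aortas remained lower (log2 fold change -0.76, adjusted p = 0.00035).

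Ddc, which acts after Th, showed the largest fall of the 13 probe sets in untreated against control aortas. Its signal intensities were 462.7 and 443.4 untreated, 726.9 and 748.1 with vitamin E, and 1581 and 1671 in B6, with wide gaps between all groups. The value was 3.59-fold lower in untreated than in control aortas (95% confidence interval 3.22 to 4.00, adjusted p = 3.3e-06). It was 1.63-fold higher with vitamin E than without (1.46 to 1.81, adjusted p = 0.00088). Both calls held under all 15 other settings of limma. The t-test of the study's methods did not call the second, either at the methods' threshold or after adjustment. Treated aortas were at 45.3% of the B6 mean and untreated ones at 27.9%. The other probe set of Ddc stayed at or under 5.5 on every array and was not tested. Ddc is also made in liver, whose marker genes moved the same way, as given with the marker lists further on.

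Dbh, the enzyme that defines noradrenergic cells, is covered by 3 tested probe sets. Probe set 1450670_at had signal intensities of 652.1 and 668.7 untreated, 818.4 and 912.3 with vitamin E, and 1625 and 1506 in B6. It was 2.37-fold lower in untreated than in control aortas (log2 fold change -1.24, SE 0.08, adjusted p = 3.5e-05) and 1.31-fold higher with vitamin E (log2 fold change 0.39, adjusted p = 0.017). The second call was lost under 4 of 15 other settings of the model, among them the fits without either untreated array. Its log2 fold change ranged from 0.31 to 0.47 over the 15. Probe set 1459848_x_at gave 597.6 and 566.8 untreated, 743.9 and 710.9 treated, and 1211 and 1315 in B6, which is 46.1% of B6 without and 57.6% with treatment. Its log2 fold changes were -1.12 (adjusted p = 4.3e-05) and 0.32 (adjusted p = 0.027). The second ranged from 0.28 to 0.36 over the 15 settings and lost its call under 7. Among the 7 were the fits without either untreated array or either B6 array. The probe sets disagreed in size, since 1447592_at, with 126.2 and 172.9 untreated, 146.4 and 184.9 treated, and 175.9 and 199.2 in B6, passed no test. Its 2 arrays within each ApoE-/- group differed by more than the group means did, and its log2 fold change in untreated against control aortas was -0.34 (95% confidence interval -0.79 to 0.10).

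Gch1, the first enzyme of tetrahydrobiopterin synthesis, had 2 tested probe sets that differed. Probe set 1429692_s_at read 129.6 and 129.5 untreated, 166.2 and 152.0 with vitamin E, and 337.6 and 278.2 in B6. It was 2.37-fold lower in untreated than in control aortas (log2 fold change -1.24, SE 0.13, adjusted p = 0.00041), and the difference of 0.29 between treated and untreated aortas was not called (95% confidence interval -0.02 to 0.61, adjusted p = 0.18). Probe set 1420499_at read 140.9 and 125.9 untreated, 143.4 and 147.0 treated, and 178.2 and 161.9 in B6, with smaller gaps. Its log2 fold change in untreated against control aortas was -0.35 (adjusted p = 0.067), which became a call with quantile normalization (adjusted p = 0.038), with median centring (0.046) or without the intensity trend (0.036).

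Slc18a2, which fills synaptic vesicles with monoamines, had signal intensities of 158.8 and 136.3 untreated, 223.3 and 191.4 with vitamin E, and 461.1 and 474.9 in B6. It was 3.18-fold lower in untreated than in control aortas (log2 fold change -1.67, SE 0.12, adjusted p = 7.9e-05). With vitamin E it was 1.41-fold higher than without (log2 fold change 0.49, adjusted p = 0.039), at 44.3% of B6 against 31.5%. This second call was lost under 8 of 15 other settings of the model, with log2 fold changes of 0.38 to 0.60 over the 15. Among the 8 were the fits without the first vitamin E array, either untreated array or either B6 array.

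Slc6a2, which clears noradrenaline from the synapse, had 2 tested probe sets. The signal intensities of 1460129_at were 1332 and 1272 untreated, 1820 and 1940 with vitamin E, and 3940 and 3818 in B6. The value was 2.98-fold lower in untreated than in control aortas (95% confidence interval 2.69 to 3.31, adjusted p = 5.5e-06) and 1.44-fold higher with vitamin E than without (adjusted p = 0.0025). Both calls held under all 15 other settings of limma, and among the members only Ddc shared this for the second one. The methods' t-test did not call the second, either at the methods' threshold or after adjustment. Probe set 1447311_at gave 111.7 and 119.3 untreated, 159.0 and 156.6 treated, and 168.3 and 180.4 in B6. It too was lower in untreated than in control aortas (log2 fold change -0.59, adjusted p = 0.0079) and higher with treatment (0.45, adjusted p = 0.0493), but treated aortas, at 90.5% of the B6 mean, were not called against B6 (log2 fold change -0.14, 95% confidence interval -0.43 to 0.15). Its first call was lost without the first untreated array or the second B6 array. Its second was lost under 10 of the 15 settings, among them the fits without any 1 of the 6 arrays. The second log2 fold change ranged from 0.40 to 0.50 over the 15. The remaining 2 probe sets of Slc6a2 lay between 32.1 and 48.9 on all arrays and were not tested.

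Npy, the peptide that sympathetic nerves release along with noradrenaline and that constricts vessels, had signal intensities of 1089 and 1105 untreated, 1290 and 1474 with vitamin E, and 2839 and 2559 in B6. It was 2.46-fold lower in untreated than in control aortas (log2 fold change -1.30, SE 0.09, adjusted p = 4.4e-05). With vitamin E it was 1.26-fold higher than without (log2 fold change 0.33, adjusted p = 0.04), at 51.2% of B6 against 40.6%. This second call was lost under 9 of 15 other settings of the model, with log2 fold changes of 0.23 to 0.43 over the 15. Among the 9 were the fits without either untreated array, the second vitamin E array or either B6 array. Another was the fit with the replicate number as a block (adjusted p = 0.065).

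Phox2a, a homeodomain factor needed for noradrenergic differentiation, read 71.6 and 84.1 untreated, 102.6 and 93.2 with vitamin E, and 171.4 and 176.4 in B6. It was lower in untreated than in control aortas (log2 fold change -1.16, SE 0.15, adjusted p = 0.001) and in treated than in control aortas (-0.83, adjusted p = 0.0047). The difference of 0.33 between treated and untreated aortas was not called (95% confidence interval -0.02 to 0.69, adjusted p = 0.18).

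Hand2, a basic helix-loop-helix factor of sympathetic neurons that is also made in heart, had signal intensities of 284.1 and 284.9 untreated, 283.9 and 270.4 with vitamin E, and 593.1 and 610.0 in B6. It was lower in untreated than in control aortas (log2 fold change -1.08, SE 0.08, adjusted p = 8e-05), at 47.3% of the B6 mean. With vitamin E it was at 46.1%, its arrays lay just under the untreated ones, and the log2 fold change was -0.04 (95% confidence interval -0.23 to 0.15, adjusted p = 0.79). Whether this differs from the change of the other members was not tested. The other 2 probe sets of Hand2 lay under 48 on every array and were not tested.

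**Figure D2:**
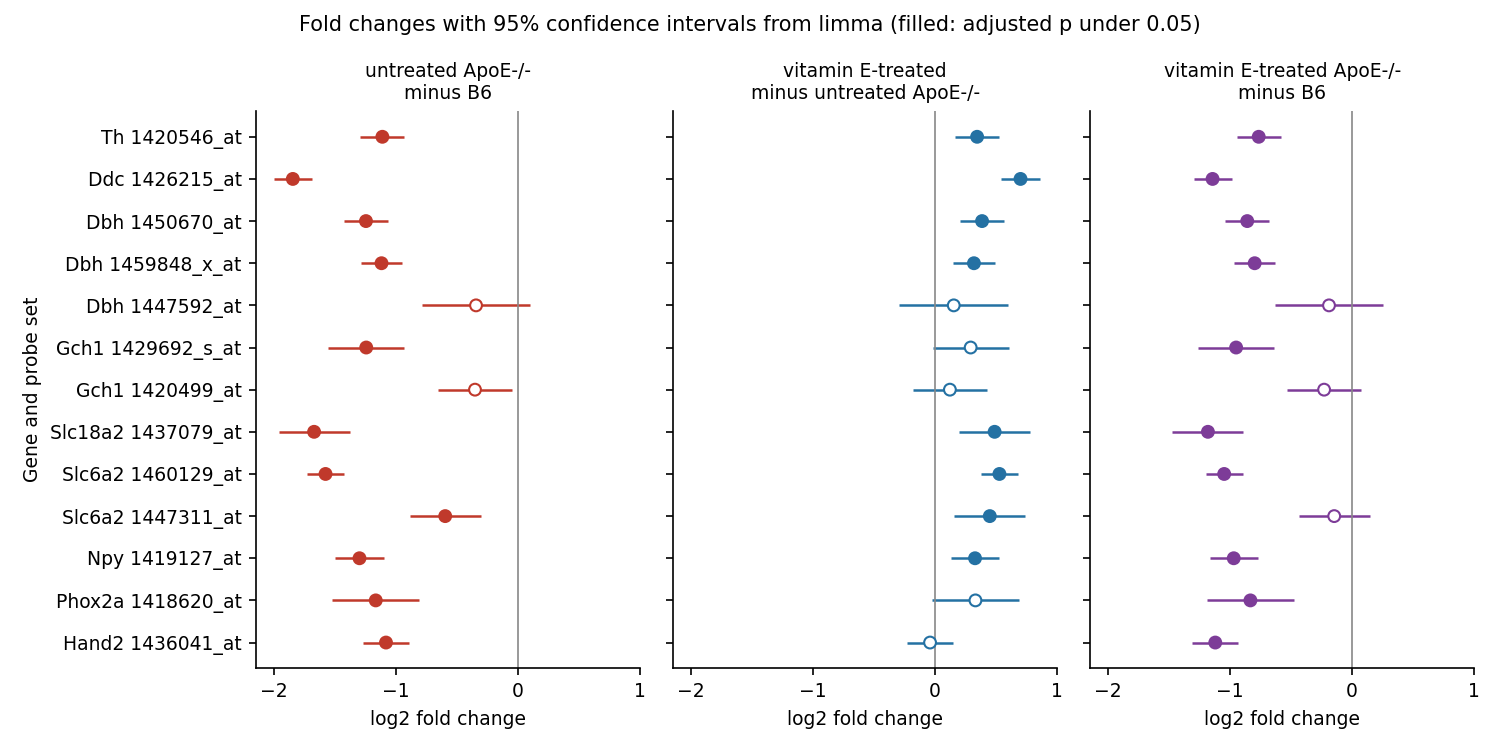
Log2 fold changes (x axis) of the 13 tested probe sets (y axis) with 95% confidence intervals from limma, 1 panel per comparison, filled where the adjusted p is under 0.05. All 13 points lie left of 0 in both comparisons with B6, and in the comparison of treated with untreated aortas 12 lie right of 0 and Hand2, at -0.04, lies at it.

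The remaining genes of the pathway moved less uniformly. Lists were counted with 1 probe set per gene, the brightest, and over all 10650 genes taken this way 20.8% were lower and 21.1% higher in untreated than in control aortas, 8.18% were higher and 7.64% lower with vitamin E than without, and 21.7% were lower and 21.1% higher in treated than in control aortas. A tested gene that reached a mean of 100 in 1 group alone was selected through its high value there, so for such genes, named with each list, the count of calls is no support. Of 5 tested genes of tetrahydrobiopterin synthesis and recycling beside Gch1, 2 were lower and 1 higher in untreated than in control aortas (median log2 fold change -0.21). Pcbd1, the dehydratase that recycles the cofactor and also assists liver transcription factors, fell by 2.26 on the log2 scale (adjusted p = 0.00015), and Qdpr, the reductase that completes recycling, fell by 0.48 (adjusted p = 0.00094). Spr, which makes the last step of synthesis, was higher (log2 fold change 1.10, adjusted p = 0.0019), while Pcbd2 (-0.21, adjusted p = 0.12) was not called. Of the same 5 genes, Pcbd1 alone was higher with vitamin E (log2 fold change 0.89, adjusted p = 0.023), and it reached a mean of 100 in B6 and treated but not untreated aortas.

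Of 6 tested genes that transport, convert or break down amines, 5 were lower and 0 higher in untreated than in control aortas (median log2 fold change -0.95). They were Slc29a4, a low-affinity monoamine transporter, Cyb561, which brings electrons into the vesicle for Dbh, the monoamine oxidases Maoa and Maob, and the sulfotransferase Sult1a1. Cyb561 had signal intensities of 409.5 and 385.6 untreated, 495.4 and 470.8 with vitamin E, and 807.3 and 739.5 in B6. Maob (-0.60, adjusted p = 0.00031) was lower still with vitamin E than without (-0.26, adjusted p = 0.029), so it moved opposite to the synthesis enzymes there, and 0 of the 6 were higher. Sult1a1 had a log2 fold change of -1.08 in untreated ApoE-/- against B6 (adjusted p = 6.7e-05) and of -0.02 with vitamin E (adjusted p = 0.86). Pnmt, which turns noradrenaline into adrenaline and marks adrenal chromaffin cells, was the sixth, with 86.8 and 191.4 untreated, 86.9 and 133.4 with vitamin E, and 10.2 and 81.0 in B6, and was not called (log2 fold change 1.68, adjusted p = 0.071). Slc18a1, the vesicular transporter of chromaffin cells, read 34.2 and 51.4 untreated, 45.1 and 37.0 with vitamin E, and 57.7 and 77.6 in B6, and was not tested.

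Of 4 other transcription factors of the sympathetic lineage that were tested, Isl1 and Tfap2b were lower and Gata3 was higher in untreated than in control aortas (median log2 fold change -0.56). Isl1 read 103.5 and 99.5 untreated, 162.9 and 161.0 with vitamin E, and 228.8 and 240.6 in B6, which is a fall of 1.21 on the log2 scale without treatment (adjusted p = 0.00026) and a rise of 0.67 with it (adjusted p = 0.011). Tfap2b had a log2 fold change of -0.92 (adjusted p = 0.0075) and of -0.02 with vitamin E (adjusted p = 0.96), and it passed the filter through B6 aortas alone (means of 59.0 untreated, 58.6 treated and 112 in B6). Gata3 was at a log2 fold change of 0.61 (adjusted p = 0.041) and passed through the treated aortas alone, and Gata2 was not called (-0.20, adjusted p = 0.39).

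All 9 tested genes of a sympathetic neuron list were lower in untreated than in control aortas (median log2 fold change -1.25), and 1, the neurotrophin receptor Ngfr, was higher with vitamin E than without. The ganglionic nicotinic receptor subunits Chrna3, Chrnb4 and Chrna7 had log2 fold changes of -1.04, -1.26 and -1.87, and the receptor tyrosine kinase Ret of -1.29. Chrna7 passed the filter through B6 aortas alone (means of 30.0 untreated, 34.1 treated and 106 in B6), so its lower value was part of its selection, and Chrnb4, Vip and Eya1 passed through B6 and treated aortas but not untreated ones. Eya1 fell by 1.41 (adjusted p = 0.0025), and its difference of 0.80 with vitamin E was not called (adjusted p = 0.054). Ngfr had signal intensities of 299.2 and 305.4 untreated, 368.0 and 423.3 with vitamin E, and 473.9 and 503.0 in B6, with log2 fold changes of -0.69 (adjusted p = 0.0012) and 0.38 (adjusted p = 0.036). Gfra2, a receptor for a neurotrophic factor, was at -0.56 (adjusted p = 0.038).

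Genes that neurons of any kind use fell as well. Of 18 tested, 17 were lower and 0 higher in untreated than in control aortas (median log2 fold change -1.47), 8 were higher and 0 lower with vitamin E (median 0.39), and 17 were lower in treated than in control aortas. Snap25, a protein of vesicle fusion, read 308.2 and 283.3 untreated, 417.9 and 358.3 with vitamin E, and 883.4 and 945.2 in B6 (log2 fold changes -1.63 and 0.39, adjusted p = 3.3e-05 and 0.039). Rab3c, a vesicle GTPase, had the largest fall of this list (log2 fold change -1.96, adjusted p = 3.6e-05), and its difference of 0.42 with vitamin E was not called (adjusted p = 0.056). Stmn3 and Uchl1, which act on microtubules and ubiquitin in neurons, fell by 1.35 and 1.05 and rose by 0.45 and 0.37 with vitamin E (adjusted p = 0.009 and 0.014). Elavl4 reached a mean of 100 in B6 aortas alone, and Scg3 in B6 and treated aortas. Members and genes of neurons in general moved in the same directions, and no test of the lists against each other was made.

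**Figure D3:**
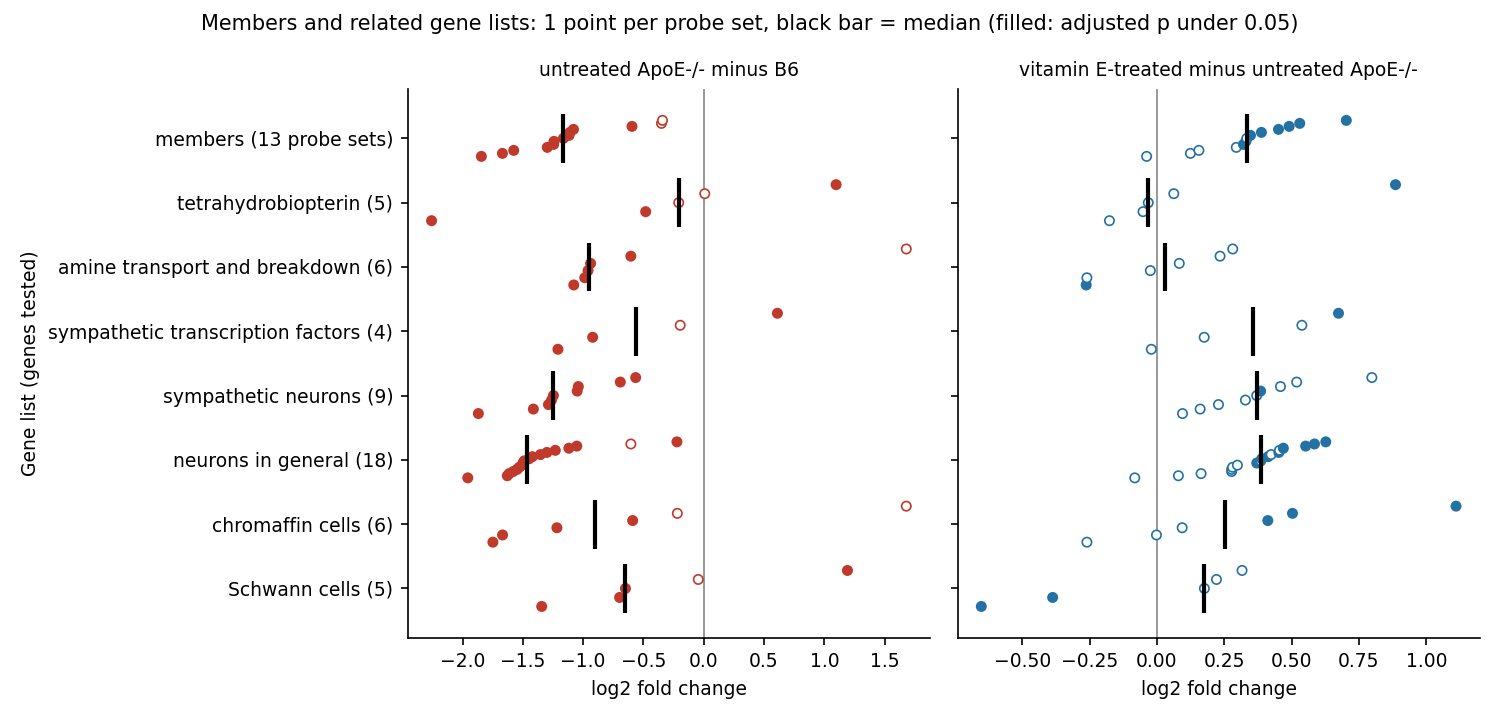
Log2 fold changes (x axis) of the 13 member probe sets and of the tested genes of 7 related lists (y axis, number of genes tested in brackets), with 1 point each, filled where the adjusted p is under 0.05, and a black bar at each median. In untreated against control aortas the medians of the members (-1.16), sympathetic neurons (-1.25) and neurons in general (-1.47) lie left of 0.

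Markers of other neurons and of glia gave mixed values. The 3 cholinergic genes (Chat, Slc18a3 and Slc5a7) and the 4 sensory genes with a probe set (Tac1, Trpv1, Scn10a and Scn11a) had group means under 31, so none was tested. Of 6 tested chromaffin genes, 4 were lower and 0 higher in untreated than in control aortas (median log2 fold change -0.90), among them the granin Chgb (-1.67, adjusted p = 4.1e-05), and Penk was not called (-0.22, adjusted p = 0.18). Resp18 (-1.75, adjusted p = 0.0019) passed the filter through B6 aortas alone (means of 30.9 untreated, 30.2 treated and 102 in B6), so its lower value was part of its selection, and the granin Chga passed through B6 and treated aortas. Granins are also made by sympathetic neurons. Of the markers that define chromaffin cells, Pnmt was not called and Slc18a1, at 63.3% of B6 untreated and 60.7% with vitamin E, was not tested. The part of such cells in the members' values was not tested. Of 5 tested Schwann cell genes, 3 were lower and 1 higher (median log2 fold change -0.65), with the myelin protein Mbp at -1.34 (adjusted p = 1.5e-05), Pmp22 at -0.05 (adjusted p = 0.58) and S100b, which adipocytes and other cells also make, at 1.19 (adjusted p = 8.5e-05). With vitamin E 0 of these 5 were higher and 2, Pmp22 and S100b, were lower.

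Of the receptors on the receiving cells, 1 was tested. Npy1r, the receptor through which Npy constricts vessels, read 164.7 and 109.7 untreated, 101.3 and 92.5 with vitamin E, and 73.7 and 63.9 in B6. It was higher in untreated than in control aortas (log2 fold change 0.97, adjusted p = 0.011) and was not called with vitamin E (-0.47, adjusted p = 0.18). It passed the filter through the untreated aortas alone (means of 137 untreated, 96.9 treated and 68.8 in B6), so a higher value there was part of its selection. Adra1b, Adra2c, Npy2r and Npy5r had group means under 43, and the other 7 receptors of the list were not analysed here.

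Marker genes of the tissues around the aorta differed between the groups in the same libraries. Contractile smooth muscle, the label's tissue, was present in all groups, with Acta2 at 8791 to 11061 and the summed signal intensity of its list at 85.9% to 96.9% of B6 in the ApoE-/- arrays (0 of 9 genes lower and 1 higher, Smtn, in untreated than in control aortas, median log2 fold change 0.00). With vitamin E 4 of the 9, namely Myh11, Cnn1, Mylk and Myocd, were lower than without and 0 higher (median -0.29), and in treated against control aortas 4 were lower and 1 higher (median -0.17). Tagln and Lmod1 were not called in untreated against control aortas (0.00 and 0.35, adjusted p = 0.98 and 0.24). Liver genes were at 6.16% and 6.20% of the B6 sum on the untreated and at 11.1% and 11.4% on the vitamin E arrays, with 12 of 12 lower in untreated than in control aortas (median log2 fold change -4.15) and 8 of 12 higher with vitamin E (median 0.82). Alb, for example, read 243 and 273 untreated, 379 and 485 with vitamin E, and 6097 and 6107 in B6. Ttr, the carrier of thyroid hormone, had log2 fold changes of -3.75 untreated against B6 (adjusted p = 1.4e-07) and 0.86 with vitamin E (adjusted p = 0.00048), and Ambp of -5.06 (adjusted p = 1.6e-06) and 1.10 (adjusted p = 0.0049). Of the 12 genes, 5 (Ambp, Ahsg, Cps1, Fgb and Hpx) passed the filter through B6 aortas alone, and Apoa1 through B6 and treated aortas. Ddc, Gch1, Maoa, Pcbd1 and Sult1a1 are among the genes that are also made in liver. The part of liver RNA in the values of these or other genes was not tested. Heart muscle genes moved the other way, at 184% and 185% of the B6 sum without and 104% and 115% with vitamin E, with 10 of 10 higher in untreated than in control aortas (median log2 fold change 1.09) and 10 of 10 lower with vitamin E (median -0.75). Tnni3 and Mybpc3, a troponin and a myosin-binding protein, rose by 1.58 and 1.73 on the log2 scale in untreated against control aortas (adjusted p = 6.2e-06 and 2.8e-05), and Myh6 and Myl7, a myosin heavy and a light chain, by 0.55 and 0.74 (adjusted p = 0.001 and 0.0015). Their part in the values of Hand2, which was lower in untreated than in control aortas, was not tested.

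**Figure D4:**
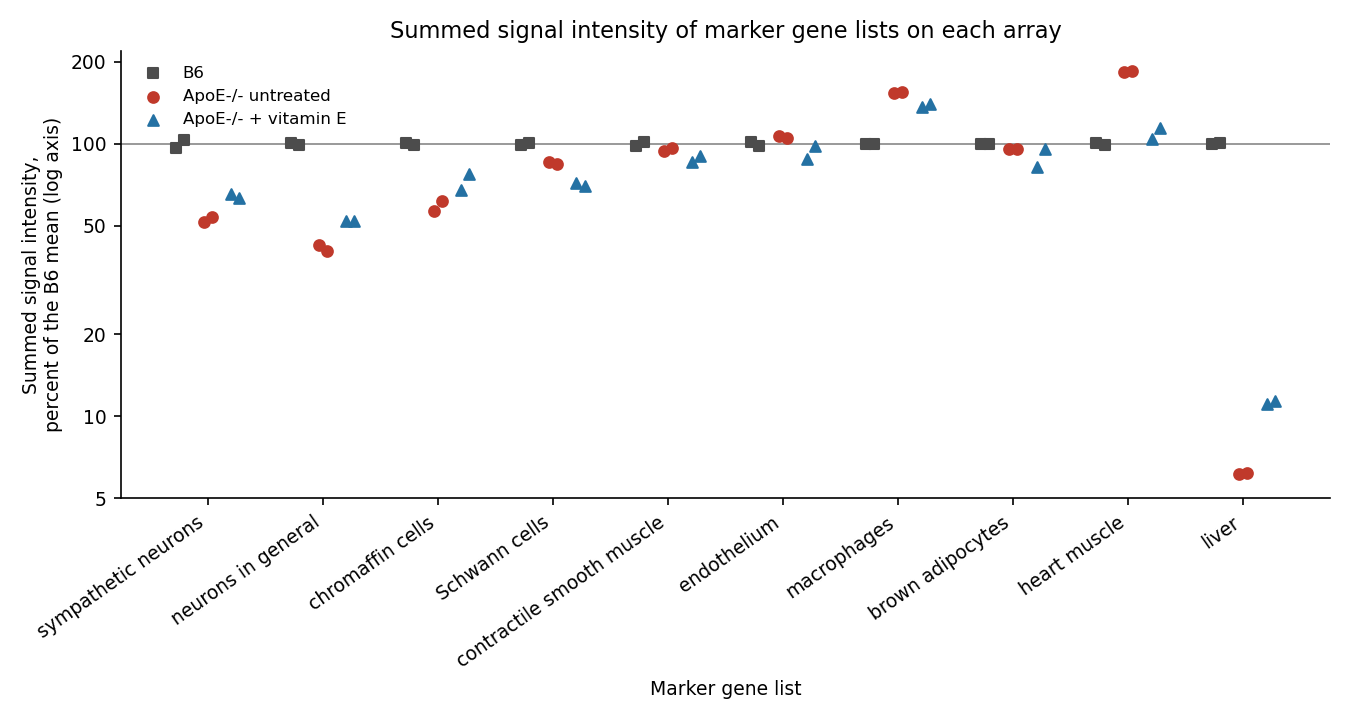
Summed signal intensity of 10 marker gene lists on each of the 6 arrays, as percent of the B6 mean on a log axis. The neuronal lists lie between 40.4% and 65.2% of B6 on the ApoE-/- arrays, smooth muscle lies between 85.9% and 96.9%, heart muscle reaches 185% on the untreated arrays, and liver lies at 6.16% to 11.4% on the ApoE-/- arrays.

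Brown adipocytes, which are densely innervated by sympathetic fibres and surround the thoracic aorta, were represented on all arrays although the aortas had been dissected free of fat. Their list stood at 82.1% to 96.1% of B6 on the ApoE-/- arrays, and 2 of 7 genes were lower and 2 higher in untreated than in control aortas (median log2 fold change -0.15). The uncoupling protein Ucp1, which marks these cells, read 7582 and 7557 untreated, 6371 and 7911 with vitamin E, and 7715 and 7707 in B6 (log2 fold change -0.03, adjusted p = 0.86). Cidea and Cox8b were not called either (-0.22 and -0.15, adjusted p = 0.11 and 0.25). The 2 lower genes were Dio2, the deiodinase, and the coactivator Ppargc1a, and the 2 higher ones were Elovl3, a fatty acid elongase, and Cox7a1, a subunit of cytochrome c oxidase. Noradrenaline is known to induce Ucp1, Dio2, Ppargc1a and Elovl3 in brown fat, and these did not move in 1 direction here. Elovl3 had signal intensities of 1269 and 1293 untreated, 578 and 628.1 with vitamin E, and 645.9 and 618.6 in B6, with log2 fold changes of 1.02 (adjusted p = 5.8e-05) and -1.09 with vitamin E (adjusted p = 0.00019). Cox7a1 was at 0.38 (adjusted p = 0.0088) and -0.49 (adjusted p = 0.0089). Dio2 had signal intensities of 241.4 and 226.5 untreated, 293.4 and 300.1 with vitamin E, and 831.0 and 768.8 in B6, with log2 fold changes of -1.77 (adjusted p = 1.2e-05) and 0.34 with vitamin E (adjusted p = 0.037). Ppargc1a fell by 1.81 (adjusted p = 0.00015), and its difference of 0.53 with vitamin E was not called (adjusted p = 0.059). Ppargc1a passed the filter through B6 and treated aortas. A link of these genes with the members was not tested.

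Of 9 tested macrophage genes, 7 were higher and 0 lower in untreated than in control aortas (median log2 fold change 0.78), with Lyz2 at 0.78 (adjusted p = 0.00012) and C1qb at 1.11 (adjusted p = 0.0016). Cd68 read 476.5 and 479.4 untreated and 244.2 and 234.7 in B6 (adjusted p = 0.00011), and Csf1r was not called (0.10, adjusted p = 0.31). Of 10 endothelial genes, 3 were higher and 1, Vwf (-0.50, adjusted p = 0.0013), was lower, with a median of 0.22. Cdh5 was among the higher ones (0.45, adjusted p = 0.013), and Esam was not called (0.18, adjusted p = 0.13). The members thus moved opposite to the macrophage list in the same arrays, and the part of added lesion cells in the lower values was not tested.

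The genes whose pattern was most like that of Dbh were sought by Pearson's r over the 6 arrays, on the log2 scale, among 1629 tested probe sets whose group means span at least 1, of which 59 had an r of at least 0.99. The 6 arrays fall into 3 groups, so r mainly reflects the order and spacing of the group means. The 10 genes outside the set with the highest r, from 0.998 to 0.996, were Napb, Slc4a4, Maoa, Pak3, Ttc28, Uchl1, Ntrk3, Syt1, Htr3a and Cyp2c70. Napb, a vesicle fusion protein of neurons, was at 32.1% of B6 untreated and 45.1% with vitamin E, and Syt1, the calcium sensor of vesicle release, at 35.2% and 46.9%. Maoa was at 21.6% and 35.2% by probe set 1442676_at, which was not the brightest probe set of that gene. Cyp2c70, a cytochrome P450 of the liver, was at 12.5% and 23.1%, so a gene of another tissue is also among the 10. Its untreated arrays (18.1 and 19.3) lay under the floor of 20. Cyp2c70, Pak3 and Ntrk3 passed the filter through B6 aortas alone, so a lower value elsewhere was part of their selection. Among the members r was 0.998 for Npy, 0.997 for Slc6a2 by 1460129_at, 0.989 for Ddc, 0.986 for Th, 0.980 for both Dbh by 1459848_x_at and Gch1 by 1429692_s_at, 0.976 for Phox2a and 0.975 for Slc18a2. It was lower for Hand2 (0.932), for Gch1 by 1420499_at (0.927), for Slc6a2 by 1447311_at (0.853) and for Dbh by 1447592_at (0.656).

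Apoe was read at 93.2 and 57.4 on the untreated and 40.5 and 45.3 on the vitamin E arrays, and at 5209 and 5432 on the B6 arrays, which is the order that the genotypes in the labels imply. The mean signal intensity of the arrays was 305 to 319, and the 2 arrays of a group correlated at 0.984 to 0.992. The arrays also differed between groups in spiked controls and in a signal ratio of Gapdh, and whether tissue plays a part in this was not tested. The spiked poly-A controls were 3.39 to 3.81 times as bright on B6 as on untreated arrays and 2.61 to 2.83 times as bright as on vitamin E arrays, and the ratio of 3' to 5' signal of Gapdh was 1.03 and 1.06 untreated, 1.15 and 1.24 with vitamin E, and 1.35 and 1.34 in B6. Both order the group means from untreated over treated to B6, as 12 of the 13 member probe sets do and Hand2 does not. The share of all tested probe sets with this order was not counted. The part of these controls and of this ratio in the members' values was not tested. The labels describe the untreated and B6 arrays as part of an experiment with captopril and the vitamin E arrays as part of one with vitamin E, so treatment and experiment cannot be told apart. Nothing says how the pooled aortas were split between the 2 arrays of a group, and the p values measure the spread between these arrays only.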

How the data were processed

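Intensities of the probe sets were computed and scaled on each array by the authors with the software GCOS, and the deposited values are linear. Present calls were left aside. Precision is limited by the number of arrays. Of 45101 probe sets, 64 are controls of the array, and its annotation gives 1 gene symbol to 34945, several to 932 and none to 9160; 34741 matched a RefSeq gene of GRCm38.p6, which served for names and promoters only, as no build is named for the annotation. A floor of 20 was set before log2. Probe sets with 1 group mean of 100 or more (17909) entered a limma 3.58.1 fit (R 4.3.3) with 3 group means, all 6 arrays, an intensity trend and Benjamini-Hochberg adjustment. Means, SDs and percentages of B6 are of values before log2. The script was tested on simulated data. A first version of this test missed its own target, and its simulated noise and its target were then changed.

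Members, gene lists and tests were chosen with earlier results of these data known. Named are the members, Apoe, the 2 genes of each list that changed most between untreated and B6 aortas, its 2 brightest, and the 10 genes most like Dbh. All other genes in the text, such as Cyb561, Gata3, Ucp1, Elovl3 and those named to complete a count or because they were not tested, were named after their values were seen. Other settings tried were quantile normalization, centring on medians, no floor or one of 50, no filter, a mean of 100 over all arrays, no trend, a fit of 2 groups, a replicate block, each array left out, every probe set of a gene, and the methods' t-test. Mice given captopril were not analysed here.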

Additional observations from a re-analysis of the deposited data

How the results depend on the processing

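Over other settings of limma, the members' calls in untreated ApoE-/- against B6 aortas were stable, those of vitamin E treatment were not. Over 15 other settings of limma, 190 of 195 values of the 13 member probe sets kept direction and call in untreated ApoE-/- against B6 aortas, 147 of 195 in treated against untreated ApoE-/- aortas (46 lost the call), and 195 of 195 in treated ApoE-/- against B6 aortas. Over 4 settings of the methods' t-test, 40, 20 and 20 of 52 values kept direction and call in these comparisons. The remaining t-test values lost the call. The direction turned for 1447592_at of Dbh with vitamin E, which was never called, without the first untreated array (log2 fold change -0.071) and without the second vitamin E array (-0.013), and with 1 array left out its value ranged from -0.071 to 0.38. The 2 arrays per group leave 3 residual degrees of freedom, and a lone array is assumed to vary like the other groups.

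In untreated ApoE-/- against B6 aortas, 7305 probe sets, 11 member probe sets and 84 list genes were called. Without the filter 4494 probe sets were called, and with 1 array left out 4326 to 8777 probe sets, 10 to 11 member probe sets and 75 to 89 list genes. The methods' t-test at the methods' threshold (p of at most 0.01 and 2-fold) called 768 probe sets and 46 list genes on log2 and 772 and 46 on linear values. After Benjamini-Hochberg adjustment it called 2156 and 51 on log2, and 2166, 52 and 7 member probe sets on linear values.

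With vitamin E against without, 2777 probe sets, 8 member probe sets and 46 list genes were called. Without the filter these were 949, 2 and 20. Without the trend 3 member probe sets were called, and with only the 2 groups fitted 1700 probe sets and 3 member probe sets. With 1 array left out they were 817 to 3506, 2 to 6 and 24 to 47, with the lowest counts without an untreated array. The methods' t-test at the methods' threshold called 179 probe sets, 0 member probe sets and 6 list genes on log2 and 176, 0 and 7 on linear values. After adjustment it called 0 of each on both scales, while at an unadjusted p under 0.05 it called 3551 probe sets, 7 member probe sets and 42 list genes on log2 and 3548, 5 and 43 on linear values, and limma 5660, 8 and 67.

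In treated ApoE-/- against B6 aortas, 7368 probe sets, 10 member probe sets and 76 list genes were called. Without the filter 4464 probe sets were called, and with 1 array left out 4332 to 7470, 10 to 10 and 59 to 80. The methods' t-test at the methods' threshold called 582, 4 and 24 on log2 and 585, 4 and 28 on linear values. After adjustment it called 67, 0 and 3 on log2 and 76, 0 and 5 on linear values, with 10 member probe sets at an unadjusted p under 0.05 on either scale. limma at the methods' threshold called 1304, 376 and 1131 probe sets in the 3 comparisons. The cause of these differences was not tested.

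The replicate numbers of the labels did not pair the arrays, since same-numbered arrays deviated with correlations of 0.055, 0.054 and -0.098. With the replicate number as a block, 6887, 2185 and 6991 probe sets and 11, 6 and 10 member probe sets were called in the 3 comparisons.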
